A study of Homo sapiens with 12 samples.

Results

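Wild-type Dicer and Dicer carrying mutation 1 were compared through the transcriptomes of cells that received either plasmid. The cells were MDA-MB-231, a human breast cancer line that lacks the oestrogen and progesterone receptors and HER2 amplification and has a mesenchymal shape. Both groups were transfected with Lipofectamine, and their poly(A)-selected RNA was sequenced as read pairs. The mutation 1 group held 3 libraries and the wild-type group held 3, which made 6 of the 12 libraries of the series; the other 6 carried mutation 2 or mutation 3 (3 each). Libraries were placed by their treatment label, and no measured value was used for it. The labels number the mutation without naming the residue, and they name no deletion of the cells' own DICER1, so transcripts of the plasmid and of the genome were counted together. Untransfected cells and cells given a plasmid with no insert were not analysed here. The labels do not say whether replicates were cultured apart, so a p-value here reflects the spread among samples, and that spread may be technical.

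Dicer is the ribonuclease that cuts hairpin precursors in the cytoplasm into mature microRNAs. Before that step, DROSHA and its partner DGCR8 release the hairpin from a long primary transcript in the nucleus and exportin-5 (XPO5) carries it out. Afterwards an Argonaute protein (AGO1 to AGO4) holds the microRNA and, with a TNRC6 protein, lowers the level and translation of messenger RNAs that pair with its seed. Because one microRNA can act on many messenger RNAs, a change in Dicer can reach many classes of genes, and the comparison asks which classes differed between cells with the mutant and cells with the wild-type enzyme.

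Library totals ran from 13761260 to 16219935 counts with mutation 1 and from 14136318 to 17078273 with wild type. Levels below are CPM, counts of a gene scaled to a common library size with a correction for library composition, and 3 values given for a group follow replicates 1, 2 and 3. Replicates lay closer together with mutation 1 than with wild type. Between any 2 mutation 1 libraries 17 to 27 of 14218 genes lay over 2-fold apart, and between wild-type replicates 2 and 3 it was 18 genes. Wild-type replicate 1 lay over 2-fold from replicate 2 at 2394 genes and from replicate 3 at 2441. All of these pairs differed by more than sampling noise, so each library was counted as a sample. Wild-type replicate 1 was kept under its label, and results are given with and without it. Checked against the labelled cell line, 13 of 13 markers of mesenchymal breast cancer lines, among them VIM, CD44 and AXL, reached 1 CPM in each group, as did 8 of 14 markers listed as low or absent in such lines. The summed level of the first list was 9224 to 9275 CPM with mutation 1 and 7202 to 7517 CPM with wild type, and that of the second 1192 to 1231 CPM with mutation 1 and 615 to 1193 CPM with wild type.

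DICER1 (ENSG00000100697, chromosome 14, 95086228 to 95158010 on hg38), the gene carried by the plasmids, was read in every library. It had 42.7, 41.3 and 44.3 CPM in mutation 1 libraries, against 27.7, 44.3 and 46.6 CPM in wild-type libraries. The groups overlapped, since wild-type replicate 1 was the lowest of the 6 libraries and wild-type replicates 2 and 3 the highest or level with the highest mutation 1 library. The log2 fold change 0.11, SE 0.20, adjusted p = 0.648 did not pass the test (edgeR quasi-likelihood test with Benjamini-Hochberg adjustment over all genes tested, the source of every adjusted p below), and the log2 fold change was -0.07 without wild-type replicate 1. Each plasmid carries DICER1, so a like level in both groups does not check the transfection.

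Of 14218 genes tested, 8305 (58.4%) were called at an adjusted p under 0.05. With mutation 1, 3754 genes (26.4%) were higher and 4551 (32%) were lower than with wild type, and the median log2 fold change of all genes was -0.03. Called genes that lay at least 2-fold apart numbered 4581 (32.2%), of which 2017 were higher and 2564 lower. At least 8-fold apart were 324 higher and 341 lower genes, and at least 16-fold apart were 149 higher and 127 lower genes. The 3 mutation 1 values and the 3 wild-type values did not overlap at 9914 genes (69.7%), of which 8241 were called. Without wild-type replicate 1, 12853 of 15122 genes were called (85%), 6338 higher (41.9%) and 6515 lower (43.1%). All but 6 of the 8305 calls then stood in the same direction and none turned. Both fits share the other libraries, and wild-type replicates 2 and 3 lay close together, so this is no independent check. Of the genes tested in both fits, 3827 were called only without wild-type replicate 1. At 4443 called genes the mean of the mutation 1 libraries and that of wild-type replicates 2 and 3 lay at least 2-fold apart on the scale of log2(CPM + 0.5), and at 75.6% of these wild-type replicate 1 lay between the 2 means. A gene at which wild-type replicate 1 lay with mutation 1 or past it was less likely to be called. The share therefore describes called genes only.

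The genes were grouped into 116 functional classes, which held 5133 of the genes tested. A class is described by how many tested members were called in each direction and by the median log2 fold change of all its tested members, to be read beside 26.4% higher, 32% lower and -0.03 over all genes. The median exceeded 0.3 in 27 classes and was below -0.3 in 29. High medians stood in the classes for collagens, hypoxia-responsive genes, complement, antigen presentation, lysosomes, the Golgi and glycolysis. Low ones stood in the classes for mitochondrial messenger RNAs, replication licensing, the E2F family, homologous recombination, the proteasome, the kinetochore and ribosome assembly. The median of ion channel genes was 0.75 over 29 tested members with wild-type replicate 1 and 0.07 over 40 without it. It lay between -0.09 and -0.01 without any single mutation 1 library. The count filter was run anew in each such fit, so medians without a library, here and below, can cover other members.

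**Figure D1:**
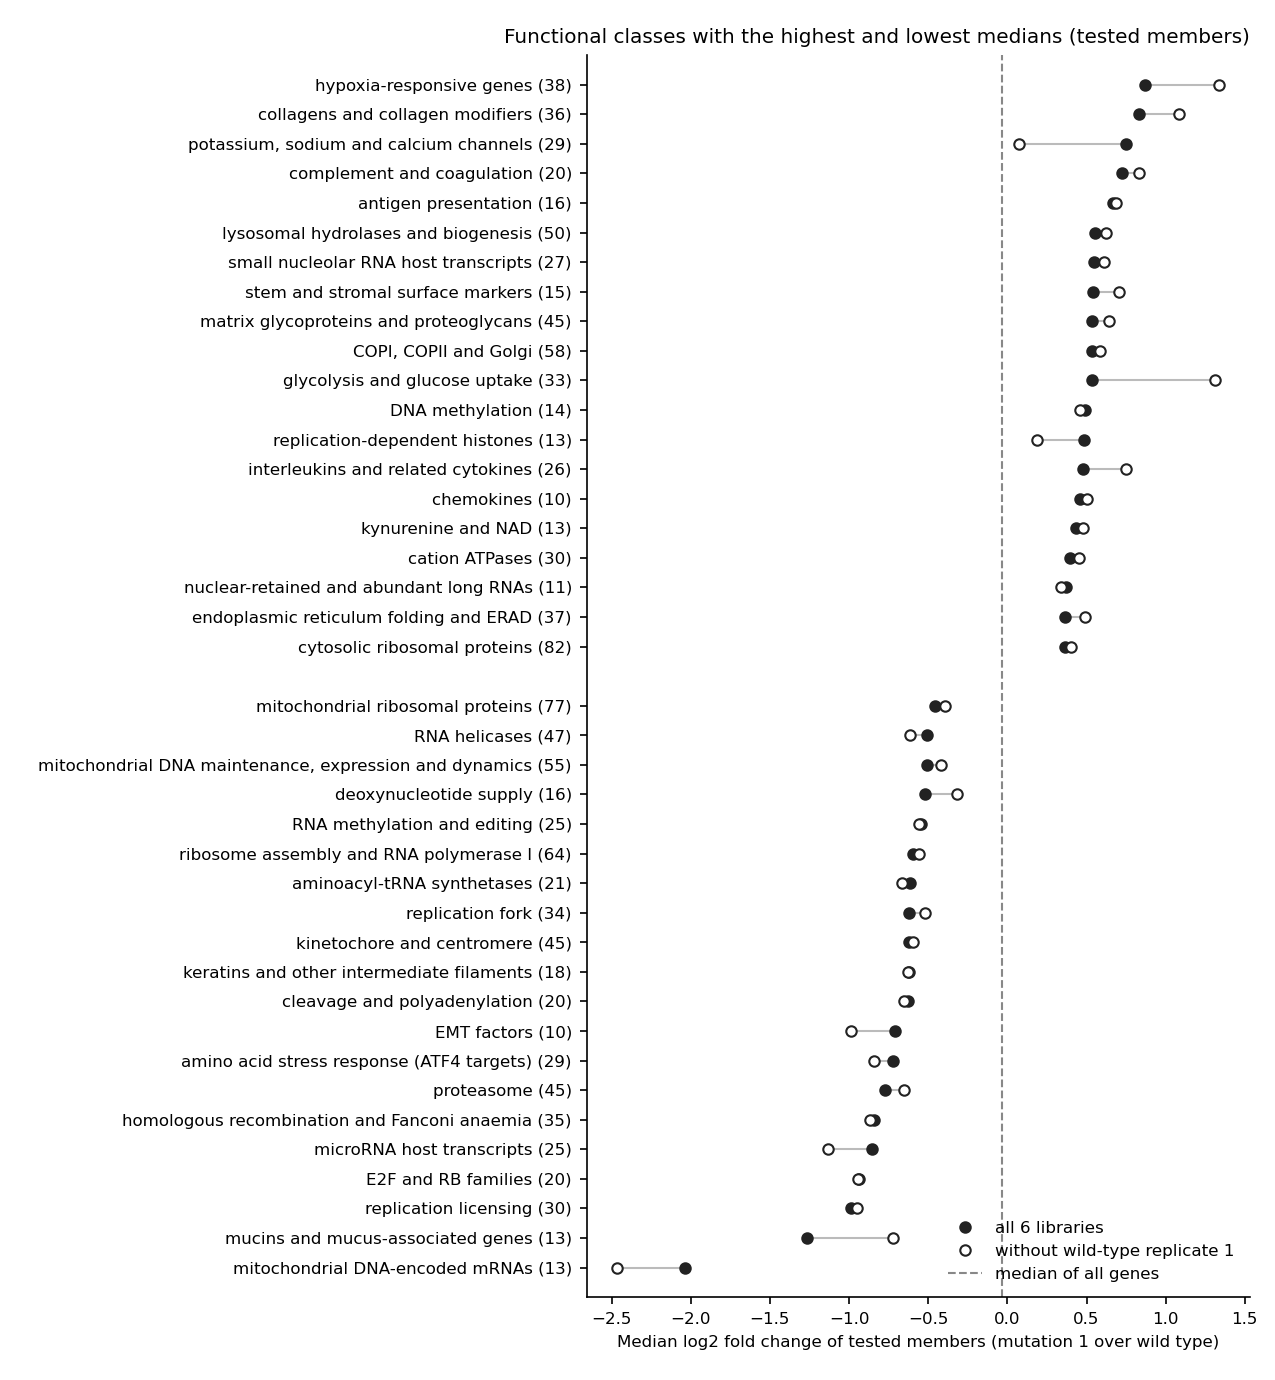
Median log2 fold change (mutation 1 over wild type) of the tested members of the 20 classes with the highest and the 20 with the lowest medians, one class a line. Filled points are the values over all 6 libraries and open points those without wild-type replicate 1; the dashed line is the median of all genes, -0.03. Replication licensing stood at -0.99 and collagens at 0.83.

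Genes of genome duplication were lower by class. In bulk RNA, fewer cells of a kind and less RNA per cell cannot be told apart. Of 30 replication licensing genes, which load and fire the MCM helicase at origins, 22 fell (73.3%) and 0 rose, with a median log2 fold change of -0.99 (-0.95 without wild-type replicate 1). At an unadjusted p under 0.05 edgeR placed 0 of them higher and 23 lower, and DESeq2 called 0 higher and 22 lower. CDC6, which loads the helicase in G1, had 22.4, 23.2 and 21.1 CPM in mutation 1 libraries, against 115, 119.7 and 129 CPM in wild-type libraries. The mutation 1 values lay together at the low end and the wild-type values, replicate 1 included, lay together well above them (log2 fold change -2.44, SE 0.09, adjusted p = 6.19e-05). MCM10, which helps start the helicase, had 11.4, 10.2 and 8.83 CPM in mutation 1 libraries, against 49.1, 48.8 and 49.3 CPM in wild-type libraries, and MCM3, a helicase subunit, had 109, 104 and 110.4 CPM in mutation 1 libraries, against 463, 361 and 357 CPM in wild-type libraries. Their log2 fold changes were -2.27 and -1.87. The other subunits of the MCM helicase fell as well, with log2 fold changes of -0.84 for MCM2, -1.17 for MCM4, -1.50 for MCM5, -1.46 for MCM6 and -0.67 for MCM7. MCM2 shares 23.6% of its exonic bases with other genes, so its counts are uncertain.

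Replication fork genes were lower by class as well: 22 of 34 fell (64.7%), 2 rose and the median log2 fold change was -0.62 (-0.52 without wild-type replicate 1). FEN1, the nuclease that trims Okazaki fragments, had 21.6, 17.6 and 18.7 CPM in mutation 1 libraries, against 189, 214 and 214 CPM in wild-type libraries. No mutation 1 library came near a wild-type one (log2 fold change -3.41, SE 0.12, adjusted p = 6.19e-05). PCNA, the clamp that holds polymerases on DNA, had 62.4, 64.7 and 60.6 CPM in mutation 1 libraries, against 286, 259 and 262 CPM in wild-type libraries (log2 fold change -2.11, SE 0.08, adjusted p = 7.17e-05). CLSPN (claspin), which links the fork to the checkpoint, had 10.8, 12.1 and 10.9 CPM in mutation 1 libraries, against 61.4, 52.1 and 55.2 CPM in wild-type libraries (log2 fold change -2.32, SE 0.11, adjusted p = 7.77e-05). In both genes the wild-type libraries stood close together and far above the mutation 1 libraries. CHTF18, a subunit of an alternative clamp loader, rose (log2 fold change 0.81). Among 20 genes of the E2F and RB families, which switch the S phase genes on and off, 14 fell and 4 rose (median log2 fold change -0.94). The activators E2F1, E2F2 and E2F3 fell (log2 fold changes -1.11, -2.76 and -1.37), as did their partner TFDP1 (-1.46). RBL2 (p130), a repressor of E2F genes in resting cells, rose by 1.67 (log2).

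The promoters of 4 genes of the licensing, fork and interferon-stimulated classes are printed. Among the members eligible for naming whose windows hold the motif searched, these had the largest changes, whatever the direction. All 4 fell. The interferon-stimulated genes BST2 and IFITM1, which rose (log2 fold changes 1.55 and 1.27), hold 2 matches each, against 1 in SAMD9. Each line is the RefSeq window of 250 bases before to 50 bases after the gene's start on GRCh38.p14, read 5′ to 3′ on the gene's strand, with the motif in capitals. CDC6 lies on the plus strand at chr17:40287629-40287928, CLSPN on the minus strand at chr1:35769929-35770228 and PCNA on the minus strand at chr20:5126573-5126872; the capitals there mark an E2F motif. SAMD9, an interferon-stimulated gene described below, lies on the minus strand at chr7:93117930-93118229, and its capitals mark an interferon response motif.
CDC6: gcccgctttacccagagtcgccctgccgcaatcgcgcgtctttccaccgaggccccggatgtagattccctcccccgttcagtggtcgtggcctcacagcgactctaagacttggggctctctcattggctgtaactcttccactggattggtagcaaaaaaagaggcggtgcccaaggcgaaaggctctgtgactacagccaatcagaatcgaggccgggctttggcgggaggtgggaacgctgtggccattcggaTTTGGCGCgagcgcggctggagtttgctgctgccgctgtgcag
CLSPN: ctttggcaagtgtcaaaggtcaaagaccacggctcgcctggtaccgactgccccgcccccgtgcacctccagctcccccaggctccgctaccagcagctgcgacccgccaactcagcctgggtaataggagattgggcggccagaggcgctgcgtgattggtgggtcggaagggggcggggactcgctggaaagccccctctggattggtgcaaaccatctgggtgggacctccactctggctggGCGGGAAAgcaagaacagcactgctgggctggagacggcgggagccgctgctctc
PCNA: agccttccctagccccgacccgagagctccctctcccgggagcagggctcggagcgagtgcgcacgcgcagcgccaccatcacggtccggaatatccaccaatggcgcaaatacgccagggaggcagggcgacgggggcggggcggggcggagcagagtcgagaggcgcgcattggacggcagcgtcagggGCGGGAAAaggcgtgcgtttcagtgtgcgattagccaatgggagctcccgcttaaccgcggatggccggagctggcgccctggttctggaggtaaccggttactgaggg
SAMD9: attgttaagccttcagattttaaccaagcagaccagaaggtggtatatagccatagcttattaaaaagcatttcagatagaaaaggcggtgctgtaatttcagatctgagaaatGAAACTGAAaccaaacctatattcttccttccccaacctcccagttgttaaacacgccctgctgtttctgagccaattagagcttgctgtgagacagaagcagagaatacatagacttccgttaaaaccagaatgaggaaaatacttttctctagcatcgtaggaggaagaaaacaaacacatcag

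The E2F motif was any of TTTCGCGC, TTTGGCGC, TTTCCCGC or TTTGCCGC on either strand, and the interferon response motif was GAAANNGAA on either strand. An E2F motif stood in the windows of 12 of 24 replication licensing genes with a RefSeq promoter (50%) and of 9 of 28 replication fork genes (32.1%), against 908 of 27305 promoters of all genes (3.3%). Of the licensing genes that fell, 10 of 18 held it, and of the fork genes that fell, 6 of 19. These matches describe letters in a window and are not shown to be sites.

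Cyclins, kinases and inhibitors of G1 were mixed: of 16 genes 7 fell (43.8%) and 4 rose, with a median log2 fold change of -0.08, near that of all genes. That median was not stable. It was -0.333 without wild-type replicate 1, -0.725 over the 10 protein-coding members with 5 to 19 exons and -0.385 over the 12 members outside chromosomes 12, 13, 14, 18 and X. CDC25A, the phosphatase that starts S phase, had 5.59, 5.78 and 6.41 CPM in mutation 1 libraries, against 42.4, 33.6 and 34.9 CPM in wild-type libraries (log2 fold change -2.64, SE 0.14, adjusted p = 8.87e-05). CCND1 (cyclin D1) and MKI67, a marker of cycling cells, fell (log2 fold changes -1.21 and -1.49), whereas CDK6, a kinase partner of cyclin D, and CKS1B, a small subunit of cyclin-dependent kinases, rose (log2 fold changes 0.43 and 0.56). CDKN1A (p21), an inhibitor of cyclin-dependent kinases, had 103, 103 and 106 CPM in mutation 1 libraries, against 80.4, 105 and 101 CPM in wild-type libraries, which overlapped (adjusted p = 0.381). Of 35 genes of homologous recombination and the Fanconi anaemia pathway 24 fell and 3 rose (median log2 fold change -0.84). BRCA1, which prepares breaks for recombination, had 11.7, 11.5 and 11.9 CPM in mutation 1 libraries, against 31.6, 52.02 and 47.9 CPM in wild-type libraries (log2 fold change -1.91, SE 0.20, adjusted p = 0.000645). GEN1, which cuts recombination junctions, fell by 2.001 (log2), while EME1, a subunit of another junction nuclease, rose by 0.86 (log2). In mismatch, excision and end-joining repair, 19 of 40 fell and 4 rose (median log2 fold change -0.45), and the uracil glycosylase UNG fell by 1.50 (log2).

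Mitosis divided into parts that differed. Of 45 kinetochore and centromere genes 30 fell and 3 rose (median log2 fold change -0.62, -0.60 without wild-type replicate 1). SKA3, which couples kinetochores to microtubules, had 9.25, 11.03 and 10.8 CPM in mutation 1 libraries, against 39.1, 60.3 and 71.5 CPM in wild-type libraries (log2 fold change -2.46, SE 0.24, adjusted p = 0.000513). The mitotic cyclins, kinases and anaphase-promoting complex had 8 higher and 11 lower of 39, shares of 20.5% and 28.2% that were not above those of all genes, and a median log2 fold change of -0.09. CDC25B, the phosphatase that admits cells to mitosis, had 655, 642 and 662 CPM in mutation 1 libraries, against 265, 269 and 269.8 CPM in wild-type libraries (log2 fold change 1.29, SE 0.07, adjusted p = 0.000104). CDK1, the mitotic kinase, and TOP2A, which untangles chromosomes, rose (log2 fold changes 0.45 and 0.37), whereas CCNB1 (cyclin B1) fell by 0.58 (log2). The calls of TOP2A and CCNB1 were lost on leaving out single libraries: without any mutation 1 library or wild-type replicate 3 (adjusted p = 0.0502 to 0.0735) for TOP2A and without any mutation 1 library (adjusted p = 0.0747 to 0.0788) for CCNB1. For sister chromatid cohesion, ESCO2, which locks cohesin on DNA in S phase, fell by 2.09 (log2), and the cohesin loader NIPBL and the subunit STAG2 rose (log2 fold changes 1.28 and 1.37). UHRF1, which brings DNA methyltransferase to replicated DNA, had 31.5, 30.5 and 31.9 CPM in mutation 1 libraries, against 140.4, 155 and 147 CPM in wild-type libraries (log2 fold change -2.24, SE 0.08, adjusted p = 6.19e-05), and DNMT1 itself fell by 0.76 (log2).

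**Figure D2:**
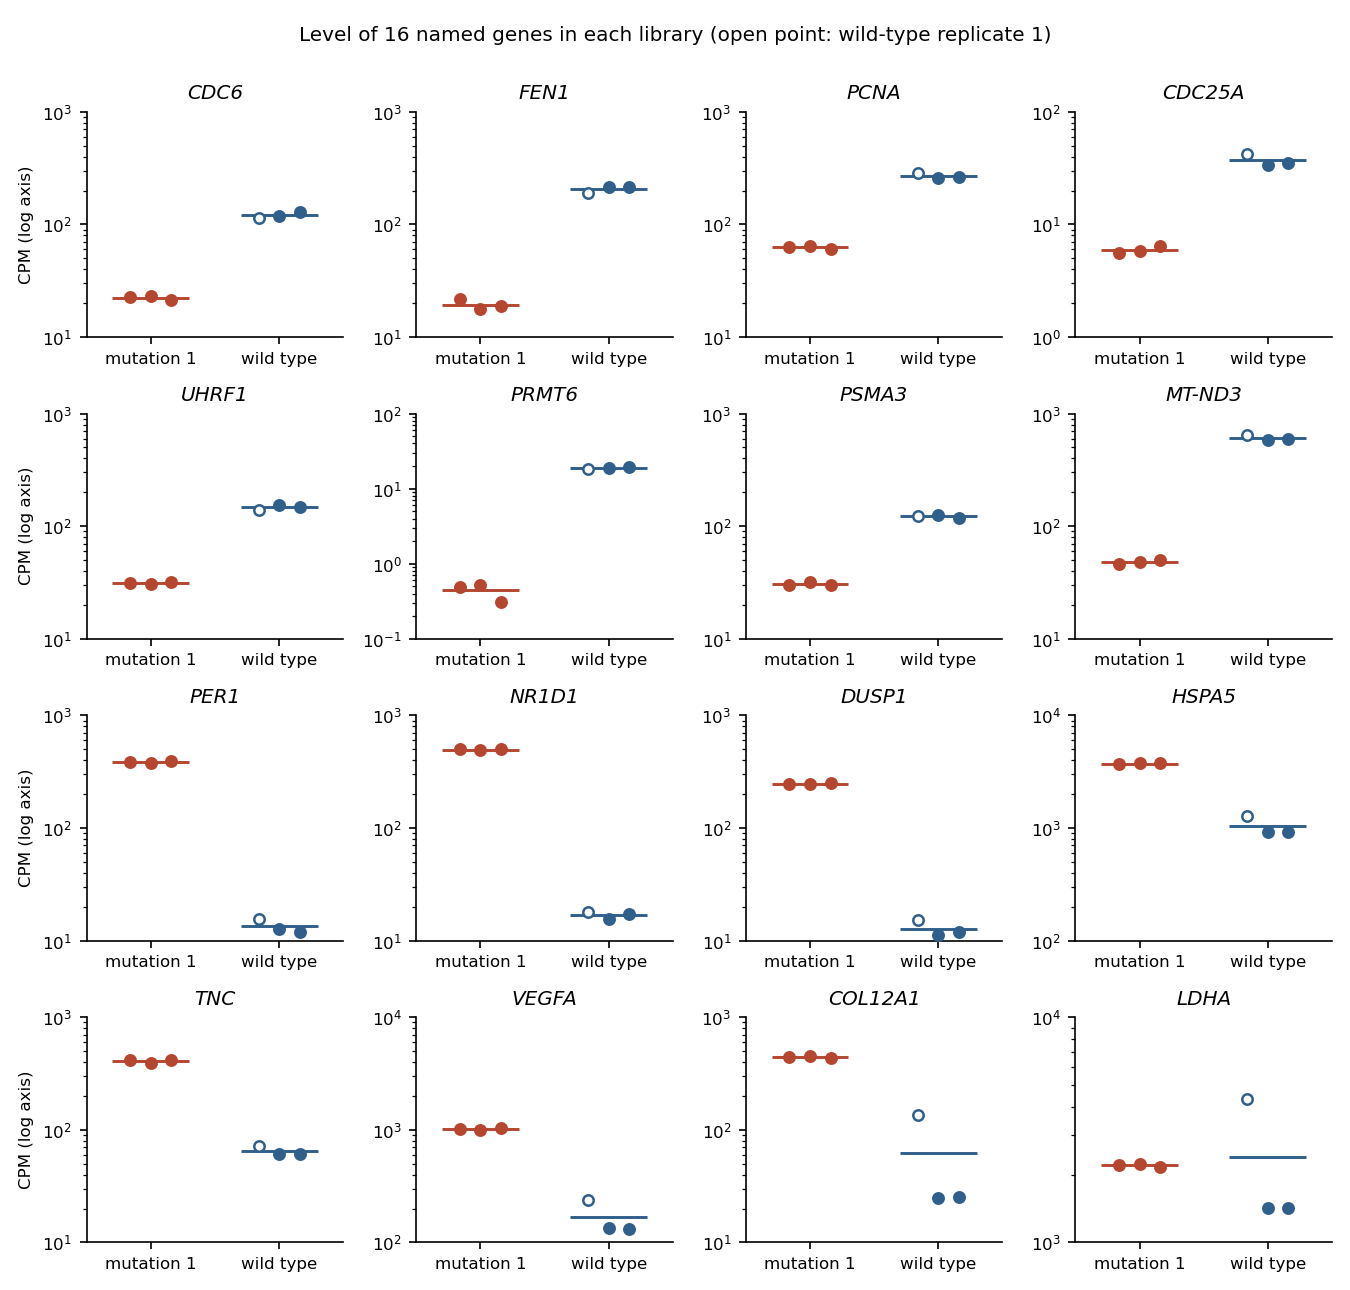
Level of 16 named genes in each library, in CPM on a log axis, with mutation 1 libraries left of wild-type libraries in every panel. Points are single libraries, bars are group means, and wild-type replicate 1 is drawn as an open point. CDC6 and FEN1 were low in every mutation 1 library, PER1 and NR1D1 high.

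Chromatin and transcription regulators split by gene. Of 424 tested zinc finger (ZNF) genes, most of which encode DNA-binding repressors, 192 fell (45.3%) and 71 rose (16.7%), with a median log2 fold change of -0.44. Among histone methyltransferases and demethylases the count was 18 higher and 19 lower of 56 (median log2 fold change -0.01, and -0.88 over the 24 protein-coding members with 5 to 19 exons). PRMT6, an arginine methyltransferase of histone H3, had 0.483, 0.525 and 0.313 CPM in mutation 1 libraries, against 18.3, 18.9 and 19.6 CPM in wild-type libraries. Every mutation 1 library held under 1 CPM of it (log2 fold change -5.39, SE 0.20, adjusted p = 6.19e-05). KDM6B, which removes repressive methyl groups from histone H3, had 63.4, 57.97 and 57.5 CPM in mutation 1 libraries, against 13.1, 15.7 and 13.8 CPM in wild-type libraries (log2 fold change 2.07, SE 0.10, adjusted p = 8.37e-05). Of the 2 catalytic subunits of Polycomb complex 2, EZH2 fell by 1.12 (log2) and EZH1 rose by 1.94 (log2). PHF1, an accessory subunit of the same complex, had 9.6, 9.65 and 8.36 CPM in mutation 1 libraries, against 0, 0.0548 and 0.191 CPM in wild-type libraries and was among the genes with the widest gap between the nearest libraries. Among the general factors, MED18, a Mediator subunit, had 1.79, 1.12 and 1.49 CPM in mutation 1 libraries, against 23.5, 17.9 and 18.2 CPM in wild-type libraries (log2 fold change -3.76, SE 0.23, adjusted p = 0.000133), and 37 of 90 genes of the polymerase II machinery and Mediator fell while 20 rose.

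Signal-responsive factors were mixed as classes and held some of the wide changes. AP-1, ETS and immediate early factors counted 16 higher and 11 lower of 47 (median log2 fold change 0.06), and nuclear receptors with their coactivators 13 higher and 6 lower of 31. FOS had 16.5, 14.4 and 17.5 CPM in mutation 1 libraries, against 0.929, 2.52 and 1.33 CPM in wild-type libraries (log2 fold change 3.32, SE 0.36, adjusted p = 0.000745), and NR4A1, an early response receptor, had 14.6, 12.9 and 14.4 CPM in mutation 1 libraries, against 0.863, 0.493 and 0.127 CPM in wild-type libraries (log2 fold change 4.80, SE 0.49, adjusted p = 0.000588, log2 fold change 5.41 without wild-type replicate 1). Both genes were low in every wild-type library. JUN, the partner of FOS in AP-1, was lower in every mutation 1 library, with 70.8, 68.4 and 74.2 CPM in mutation 1 libraries, against 221, 186 and 182 CPM in wild-type libraries (log2 fold change -1.46, SE 0.10, adjusted p = 0.00018). DUSP1, a phosphatase that switches MAP kinases off, had 244, 246 and 252 CPM in mutation 1 libraries, against 15.1, 11.3 and 11.8 CPM in wild-type libraries (log2 fold change 4.28, SE 0.14, adjusted p = 6.19e-05). MYC, a driver of growth genes, had 401, 373 and 391 CPM in mutation 1 libraries, against 129.9, 127 and 122 CPM in wild-type libraries (log2 fold change 1.62, SE 0.08, adjusted p = 7.77e-05). Of the developmental factors, SOX4 and FOXA2 fell (log2 fold changes -3.95 and -6.13), whereas KLF9, a glucocorticoid-responsive factor, rose by 3.01 (log2).

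RNA processing was lower in several of its steps. Among 47 RNA helicases 29 fell and 6 rose (median log2 fold change -0.51). DHX9, a helicase of double-stranded RNA, had 88.6, 90.4 and 89.2 CPM in mutation 1 libraries, against 266, 267 and 272 CPM in wild-type libraries (log2 fold change -1.58, SE 0.07, adjusted p = 7.62e-05). Cleavage and polyadenylation genes had 12 lower and 2 higher of 20 (median log2 fold change -0.63). CLP1, a kinase of that complex, had 1.93, 1.71 and 2.89 CPM in mutation 1 libraries, against 21.3, 22.4 and 24.2 CPM in wild-type libraries, and CSTF2, which binds the site downstream of the cleavage point, fell by 1.60 (log2). RNA methylation and editing had 14 lower and 3 higher of 25 (median log2 fold change -0.54, and -0.27 over the 20 members outside chromosomes 12, 13, 14, 18 and X), with TRMT6, a tRNA methyltransferase subunit, and PUS1, a pseudouridine synthase, both lower (log2 fold changes -2.60 and -2.32). Splicing differed by part: 29 of 63 core spliceosome genes fell and 12 rose, against 25 lower and 27 higher of 88 SR proteins, hnRNPs and their regulators. SF3B4, a subunit that binds near the branch point, fell by 2.25 (log2). CLK1, a kinase of SR proteins, had 216, 226 and 209.9 CPM in mutation 1 libraries, against 29.8, 42.7 and 45.1 CPM in wild-type libraries (log2 fold change 2.47, SE 0.17, adjusted p = 0.000177), and its relative CLK4 rose by 2.11 (log2).

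The parts of the translation apparatus did not move together. Of 82 cytosolic ribosomal protein genes 47 rose (57.3%) and 4 fell, with a median log2 fold change of 0.36 (0.40 without wild-type replicate 1). Many of these genes have processed pseudogenes, so single members are uncertain. Ribosome assembly and RNA polymerase I genes went the other way, with 42 of 64 lower (65.6%) and 5 higher (median log2 fold change -0.59). UTP3, which processes ribosomal RNA, had 8.22, 8.99 and 7.5 CPM in mutation 1 libraries, against 48.5, 47.4 and 48.9 CPM in wild-type libraries (log2 fold change -2.55, SE 0.10, adjusted p = 7.34e-05). NCL (nucleolin), an abundant nucleolar protein, fell by 0.89 (log2). Of 21 aminoacyl-tRNA synthetase genes, which charge tRNAs, 15 fell and 0 rose (median log2 fold change -0.61); at an unadjusted p under 0.05 edgeR placed 1 higher and 16 lower, and DESeq2 called 1 higher and 15 lower. MARS1, the methionyl enzyme, had 53.1, 50.1 and 60.5 CPM in mutation 1 libraries, against 164, 352 and 352 CPM in wild-type libraries, with wild-type replicate 1 nearest to the mutation 1 libraries (log2 fold change -2.41, SE 0.31, adjusted p = 0.00139). Mitochondrial ribosomal protein genes had 42 lower and 5 higher of 77 (median log2 fold change -0.46). Translation factors had 19 higher and 22 lower of 63, and EIF5, which helps choose the start codon, fell by 2.71 (log2).

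Protein breakdown in the cytosol and protein handling in the secretory pathway differed in opposite directions. Of 45 proteasome genes 32 fell (71.1%) and 0 rose (median log2 fold change -0.77, -0.65 without wild-type replicate 1). For these genes edgeR placed 0 higher and 33 lower at an unadjusted p under 0.05, and DESeq2 called 0 higher and 32 lower. PSMA3, a subunit of the core ring, had 30.3, 32.1 and 30.2 CPM in mutation 1 libraries, against 122, 125 and 119 CPM in wild-type libraries (log2 fold change -1.98, SE 0.07, adjusted p = 6.19e-05). PSMC5, an ATPase of the cap, had 40.9, 41.6 and 39.9 CPM in mutation 1 libraries, against 129.9, 156 and 155 CPM in wild-type libraries (log2 fold change -1.85, SE 0.10, adjusted p = 9.16e-05). Neither gene had a mutation 1 library within reach of a wild-type one. Endoplasmic reticulum folding and degradation genes had 17 higher and 4 lower of 37 (median log2 fold change 0.36). HSPA5 (BiP), the main chaperone of that compartment, had 3724, 3745 and 3748 CPM in mutation 1 libraries, against 1283, 915 and 914 CPM in wild-type libraries (log2 fold change 1.85, SE 0.16, adjusted p = 0.000342), and HSP90B1, its HSP90, rose by 1.50 (log2). VCP, the ATPase that pulls proteins out of the membrane, fell by 0.91 (log2). XBP1, a main transcription factor of this response, was listed at 0 counts in all 6 libraries, and no level is read from that.

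COPI, COPII and Golgi genes had 31 of 58 higher (53.4%) and 6 lower (median log2 fold change 0.53, 0.59 without wild-type replicate 1). GOLGA2, a Golgi tether, had 418, 401 and 422 CPM in mutation 1 libraries, against 113, 124 and 122 CPM in wild-type libraries (log2 fold change 1.79, SE 0.08, adjusted p = 7.62e-05), and the COPII coat gene SEC24A rose by 2.16 (log2). Lysosomal genes had 27 higher and 4 lower of 50 (median log2 fold change 0.55). NPC1, which exports cholesterol from lysosomes, had 302, 304 and 318 CPM in mutation 1 libraries, against 93.2, 105 and 109.9 CPM in wild-type libraries (log2 fold change 1.58, SE 0.09, adjusted p = 0.000115), and the hydrolases SGSH and MANBA rose (log2 fold changes 1.68 and 1.35). Genes of the ATF4 response to amino acid shortage had 17 lower and 7 higher of 29 (median log2 fold change -0.72). CHAC1, which degrades glutathione, had 0.345, 0.0657 and 0.703 CPM in mutation 1 libraries, against 8.49, 22.6 and 23.2 CPM in wild-type libraries (log2 fold change -5.63, SE 0.72, adjusted p = 0.00127, log2 fold change -6.39 without mutation 1 replicate 3), and PSAT1, an enzyme of serine synthesis, fell by 2.75 (log2). Against that direction, CEBPB, a partner factor, had 505, 522 and 528 CPM in mutation 1 libraries, against 109, 100.3 and 97.1 CPM in wild-type libraries (log2 fold change 2.34, SE 0.08, adjusted p = 6.19e-05), and ATF3 rose by 2.14 (log2). ATF4 itself did not pass the test, with 290.1, 282 and 296 CPM in mutation 1 libraries, against 236, 468 and 465 CPM in wild-type libraries (adjusted p = 0.207).

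Genes of the matrix outside the cell were higher by class. Collagens and their modifying enzymes had 18 of 36 higher (50%) and 2 lower, with a median log2 fold change of 0.83 (1.08 without wild-type replicate 1). COL12A1, a collagen that associates with fibrils, had 445, 452 and 433 CPM in mutation 1 libraries, against 137, 24.7 and 25.2 CPM in wild-type libraries. LOXL4, a lysyl oxidase that crosslinks collagen, had 467, 453 and 471 CPM in mutation 1 libraries, against 109.6, 44.5 and 44.05 CPM in wild-type libraries (log2 fold change 2.81, SE 0.40, adjusted p = 0.00185, log2 fold change 3.41 without wild-type replicate 1). In both genes wild-type replicate 1 lay between the mutation 1 libraries and the other wild-type libraries, and COL12A1 had a log2 fold change of 2.84 with it and 4.18 without it. The call of COL12A1 was lost without any mutation 1 library (adjusted p = 0.0523 to 0.0545). COL1A1, the main chain of type I collagen, rose by 0.93 (log2) and COL17A1, a collagen of hemidesmosomes, fell by 3.30 (log2). Matrix glycoproteins and proteoglycans had 19 higher and 9 lower of 45 (median log2 fold change 0.53). TNC (tenascin C) had 420.1, 395 and 414 CPM in mutation 1 libraries, against 71.5, 61 and 61.3 CPM in wild-type libraries, with tight values in both groups (log2 fold change 2.67, SE 0.10, adjusted p = 6.19e-05). FN1 (fibronectin) had 1258, 1225 and 1215 CPM in mutation 1 libraries, against 239, 486 and 484 CPM in wild-type libraries (log2 fold change 1.61, SE 0.28, adjusted p = 0.00405). THBS1 had 3702, 3541 and 3562 CPM in mutation 1 libraries, against 2508, 382 and 388 CPM in wild-type libraries, so its groups did not overlap, but the spread of the wild-type libraries kept it from passing the test (log2 fold change 1.72, adjusted p = 0.105); without wild-type replicate 1 it was 3.25. FBN1 (fibrillin 1) and SRGN (serglycin) fell (log2 fold changes -1.74 and -3.13). The 10 markers of fibroblasts and stroma summed to 110.7 to 119.9 CPM with mutation 1 and 24.3 to 41.5 CPM with wild type. Most of that sum was PDGFRB and COL1A1, 3 of the markers reached 1 CPM with mutation 1 and 4 with wild type, and DCN (decorin) was at 0 in all 6 libraries. Their part in the matrix result was not tested.

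Enzymes that cut the matrix and their inhibitors had 20 higher and 10 lower of 53 (median log2 fold change 0.31). MMP1, a collagenase, had 0.207, 0.131 and 0 CPM in mutation 1 libraries, against 1.86, 10.1 and 9.79 CPM in wild-type libraries, and TIMP3, an inhibitor of such enzymes, had 96.04, 97.4 and 97.1 CPM in mutation 1 libraries, against 21.8, 42.98 and 40.8 CPM in wild-type libraries (log2 fold change 1.46, SE 0.26, adjusted p = 0.00412). Integrins had 9 higher and 7 lower of 27: ITGAV and ITGB1 rose (log2 fold changes 1.59 and 0.65), and ITGB2, known from leukocytes, had 2.49, 1.38 and 1.49 CPM in mutation 1 libraries, against 5.31, 80.7 and 80.6 CPM in wild-type libraries. Actin, myosin and stress fibre genes had 19 higher and 13 lower of 60. MYH9, the heavy chain of nonmuscle myosin IIA, had 4695, 4424 and 4722 CPM in mutation 1 libraries, against 1914, 1920.0 and 1894 CPM in wild-type libraries (log2 fold change 1.27, SE 0.09, adjusted p = 0.000158), and MYLK, the kinase of its light chain, rose by 1.80 (log2). Keratins and other intermediate filaments had 10 lower and 1 higher of 18; KRT81, a near-identical copy of KRT86 and so uncertain, fell by 5.06 (log2).

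For the epithelial and mesenchymal states, SNAI1 (Snail), a repressor of E-cadherin, had 18.1, 19.4 and 19.9 CPM in mutation 1 libraries, against 2.52, 0.712 and 0.508 CPM in wild-type libraries (log2 fold change 3.95, SE 0.56, adjusted p = 0.00192, log2 fold change 4.95 without wild-type replicate 1). ZEB1, another repressor and a well-known miR-200 target, had 37.4, 36.3 and 35.9 CPM in mutation 1 libraries, against 29.3, 74.5 and 79.6 CPM in wild-type libraries. VIM (vimentin) had 1461, 1538 and 1459 CPM in mutation 1 libraries, against 999, 1845 and 1840.0 CPM in wild-type libraries, and CDH1 (E-cadherin) had 11.9, 11.2 and 9.38 CPM in mutation 1 libraries, against 14, 1.15 and 1.21 CPM in wild-type libraries. In ZEB1, VIM and CDH1 wild-type replicate 1 lay apart from replicates 2 and 3, on the side of the mutation 1 libraries or past them, and none of these genes passed the test (adjusted p = 0.124, 0.814 and 0.405). Without wild-type replicate 1 the log2 fold changes were -1.05 for ZEB1, -0.29 for VIM and 3.22 for CDH1. VIM shares 24.4% of its exonic bases with other genes, its antisense RNA among them, so its counts are uncertain. HMGA2, a well-known let-7 target, had 36.6, 33.2 and 34.3 CPM in mutation 1 libraries, against 26.6, 131 and 129.7 CPM in wild-type libraries and did not pass the test either (adjusted p = 0.0673). CD44, a hyaluronan receptor, and PDGFRB, a receptor of stromal cells, rose (log2 fold changes 1.31 and 3.10, the second 3.96 without wild-type replicate 1).

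Of 38 hypoxia-responsive genes 18 rose (47.4%) and 3 fell, with a median log2 fold change of 0.87, and 1.34 without wild-type replicate 1. VEGFA, the vessel growth factor, had 1015, 1001 and 1031 CPM in mutation 1 libraries, against 239, 134 and 132 CPM in wild-type libraries (log2 fold change 2.59, SE 0.26, adjusted p = 0.000554). ADM (adrenomedullin), a vessel-relaxing peptide, had 361, 356 and 367 CPM in mutation 1 libraries, against 56.5, 39.5 and 38.5 CPM in wild-type libraries (log2 fold change 3.01, SE 0.17, adjusted p = 0.000117). Mutation 1 libraries were high in both genes and wild-type replicate 1 was the highest of the wild-type libraries. HIF1A, the oxygen-sensitive factor of this response, had 840.3, 845 and 819 CPM in mutation 1 libraries, against 215, 321 and 337 CPM in wild-type libraries (log2 fold change 1.52, SE 0.18, adjusted p = 0.00102). CA9, a carbonic anhydrase induced by it, had 54.1, 63.7 and 63.5 CPM in mutation 1 libraries, against 35.6, 0 and 0.191 CPM in wild-type libraries, which did not pass the test (log2 fold change 2.35, adjusted p = 0.258); without wild-type replicate 1 it was 9.31. CA9 also shares 38.5% of its exonic bases with another gene, so its counts are uncertain. Glycolysis and glucose uptake depended on wild-type replicate 1 more: 10 of 33 rose and 2 fell with it (median log2 fold change 0.53), while without it 28 rose and 4 fell (median 1.31). PGK1, a glycolytic kinase, had 1505, 1488 and 1496 CPM in mutation 1 libraries, against 1825, 563 and 567 CPM in wild-type libraries; LDHA, which makes lactate, had 2211, 2239 and 2153 CPM in mutation 1 libraries, against 4312, 1424 and 1426 CPM in wild-type libraries. Wild-type replicate 1 was the highest of the 6 libraries in both, and neither passed the test (log2 fold changes 0.60 and -0.12, adjusted p = 0.32 and 0.838). Without that library the log2 fold changes were 1.43 for PGK1 and 0.65 for LDHA. TXNIP, which limits glucose uptake, had 1048, 1084 and 1056 CPM in mutation 1 libraries, against 149.5, 49.9 and 46.9 CPM in wild-type libraries (log2 fold change 3.69, SE 0.51, adjusted p = 0.00175, log2 fold change 4.48 without wild-type replicate 1).

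Of the 13 messenger RNAs encoded by mitochondrial DNA, 10 fell and 0 rose, with a median log2 fold change of -2.04 (-2.47 without wild-type replicate 1). At an unadjusted p under 0.05 edgeR placed 0 higher and 10 lower, and DESeq2 called 0 higher and 10 lower. MT-ND3, a complex I subunit, had 46.1, 47.7 and 50.4 CPM in mutation 1 libraries, against 645, 580.1 and 590.2 CPM in wild-type libraries, with all wild-type libraries close together (log2 fold change -3.65, SE 0.09, adjusted p = 4.94e-05). MT-CO3, a complex IV subunit, had 193, 186 and 192 CPM in mutation 1 libraries, against 1141, 4132 and 4169 CPM in wild-type libraries, where wild-type replicate 1 lay between (log2 fold change -4.05, SE 0.53, adjusted p = 0.00139). Together these 13 messenger RNAs made up 1.36%, 1.29% and 1.27% of the counts of mutation 1 libraries, against 1.34%, 5.04% and 5.09% in wild-type libraries. By this share wild-type replicate 1 was level with mutation 1, while the single genes MT-ND3 and MT-CO3 were higher in it than in every mutation 1 library. MT-RNR2, the large ribosomal RNA of mitochondria, had 20314, 20039 and 20069 CPM in mutation 1 libraries, against 6376, 21274 and 21527 CPM in wild-type libraries and did not pass the test (adjusted p = 0.588). TRMT10C, a subunit of the nuclease that cuts mitochondrial transcripts at tRNAs, had 2.9, 3.94 and 2.81 CPM in mutation 1 libraries, against 45.2, 45.1 and 42.8 CPM in wild-type libraries (log2 fold change -3.78, SE 0.16, adjusted p = 7.62e-05). Nuclear genes for mitochondrial DNA upkeep, expression and dynamics had 30 lower and 8 higher of 55 (median log2 fold change -0.51), complex I subunits and assembly factors 20 lower and 5 higher of 43.

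Lipid, iron and amino acid genes went both ways. SCD, which desaturates fatty acids, had 1362, 1375 and 1358 CPM in mutation 1 libraries, against 299, 168 and 174 CPM in wild-type libraries (log2 fold change 2.68, SE 0.25, adjusted p = 0.000436). Cholesterol synthesis and uptake had 10 higher and 11 lower of 33. ABCA1, an exporter of cholesterol, rose by 2.78 (log2), or 3.69 without wild-type replicate 1. Iron and haem genes had 11 lower and 3 higher of 28 (median log2 fold change -0.35). FTL, the ferritin light chain, which stores iron and went against that median, had 7469, 7312 and 7536 CPM in mutation 1 libraries, against 2619, 1401 and 1419 CPM in wild-type libraries (log2 fold change 2.04, SE 0.27, adjusted p = 0.00151). STEAP1, another member of the class, fell by 3.31 (log2). The amino acid carriers SLC7A5 and SLC38A2 fell (log2 fold changes -1.37 and -1.77).

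Interferon-stimulated antiviral genes had 24 lower and 13 higher of 52 (median log2 fold change -0.41, -0.60 without wild-type replicate 1, and -0.18 over the 45 members outside chromosomes 12, 13, 14, 18 and X). OASL, which strengthens the sensing of viral RNA, had 0.898, 0.853 and 0.547 CPM in mutation 1 libraries, against 25.3, 31.7 and 32.1 CPM in wild-type libraries (log2 fold change -5.25, SE 0.22, adjusted p = 7.62e-05). IFIT2, which binds foreign RNA, had 4.35, 4.79 and 3.98 CPM in mutation 1 libraries, against 42.7, 51.3 and 51.5 CPM in wild-type libraries (log2 fold change -3.47, SE 0.13, adjusted p = 7.04e-05). SAMD9, an antiviral factor whose promoter is printed above, had 2.28, 2.1 and 2.19 CPM in mutation 1 libraries, against 16.1, 30.9 and 30.7 CPM in wild-type libraries (log2 fold change -3.56, SE 0.30, adjusted p = 0.000319). All 3 genes were low in every mutation 1 library. Others of the class rose: GBP2, a guanylate-binding protein, had 232, 231 and 239.7 CPM in mutation 1 libraries, against 69.5, 69.4 and 70.7 CPM in wild-type libraries (log2 fold change 1.74, SE 0.07, adjusted p = 7.34e-05), and BST2 (tetherin) rose by 1.55 (log2), or 2.17 without wild-type replicate 1, a call that was lost without any mutation 1 library (adjusted p = 0.0508 to 0.0538). ISG15 and MX1, members that interferon is known to induce widely, did not pass the test (adjusted p = 0.277 and 0.187); the log2 fold change of MX1 was 1.03 with and 2.13 without wild-type replicate 1. The interferon response motif stood in the windows of 31 of 49 genes of the class (63.3%), against 2264 of 27305 promoters (8.3%), and in 13 of the 20 with a promoter that fell.

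Cytokines and signals of innate immunity were mixed. CSF3 (G-CSF), which drives neutrophil formation, had 0.207, 0.263 and 0.234 CPM in mutation 1 libraries, against 16.3, 30.3 and 28.1 CPM in wild-type libraries (log2 fold change -6.68, SE 0.37, adjusted p = 0.000104). CXCL1, which attracts neutrophils, fell by 2.52 (log2), while IL1B and IL24 rose (log2 fold changes 1.997 and 3.11). Without wild-type replicate 1 the log2 fold changes were -1.81 for CXCL1 and 3.70 for IL24. CCL2, which attracts monocytes, had 167, 161 and 161 CPM in mutation 1 libraries, against 15.8, 0.0548 and 0 CPM in wild-type libraries: wild-type replicate 1 held all but a trace of the wild-type counts (log2 fold change 4.97, SE 1.58, adjusted p = 0.0361, log2 fold change 12.10 without wild-type replicate 1). That last value is a fitted one against libraries at or near 0, and the call of CCL2 was lost without any mutation 1 library or wild-type replicate 2 or 3 (adjusted p = 0.0534 to 0.0942). IRAK3 and SOCS3, inhibitors of Toll-like and cytokine receptors, fell (log2 fold changes -5.31 and -3.67). RIPK1, a kinase of cell death and inflammation, had 6.7, 6.37 and 8.13 CPM in mutation 1 libraries, against 51.5, 59.2 and 56 CPM in wild-type libraries (log2 fold change -2.98, SE 0.13, adjusted p = 7.62e-05). Antigen presentation had 9 higher and 3 lower of 16 (median log2 fold change 0.67), and CD74, the invariant chain of MHC class II, had 1704, 1595 and 1665 CPM in mutation 1 libraries, against 613, 656 and 645 CPM in wild-type libraries (log2 fold change 1.37, SE 0.08, adjusted p = 0.000121); HLA genes have near-identical copies and their counts are uncertain. Complement and coagulation had 10 higher and 1 lower of 20 (median log2 fold change 0.72). C3, the central complement protein, had 869, 792 and 845 CPM in mutation 1 libraries, against 335, 44.3 and 44.8 CPM in wild-type libraries, so wild-type replicate 1 lay nearer to mutation 1 (log2 fold change 2.56, SE 0.86, adjusted p = 0.0436, log2 fold change 4.25 without wild-type replicate 1), and its call was lost without any mutation 1 library or wild-type replicate 2 or 3 (adjusted p = 0.0796 to 0.101).

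Among growth factors and their signals, AREG (amphiregulin), a ligand of EGFR, had 581, 576 and 596 CPM in mutation 1 libraries, against 109.8, 27.4 and 28.7 CPM in wild-type libraries (log2 fold change 3.40, SE 0.61, adjusted p = 0.0045, log2 fold change 4.41 without wild-type replicate 1), and EGFR rose by 0.94 (log2). FGF5 and IGFBP1, a binder of insulin-like growth factors, were near 0 with mutation 1: FGF5 had 0.069, 0.0657 and 0.234 CPM in mutation 1 libraries, against 1.59, 12.98 and 12.2 CPM in wild-type libraries and IGFBP1 had 0.207, 0.394 and 0.313 CPM in mutation 1 libraries, against 11.02, 30.4 and 29.6 CPM in wild-type libraries. TGF-beta and BMP genes had 15 higher and 16 lower of 44. BMP4, a bone morphogenetic protein, had 39.3, 40.6 and 38.4 CPM in mutation 1 libraries, against 303, 322 and 329 CPM in wild-type libraries, with narrow groups far apart (log2 fold change -3.01, SE 0.08, adjusted p = 4.94e-05). ID1, a gene that BMP signals are known to induce, had 31.6, 29.2 and 31.8 CPM in mutation 1 libraries, against 168, 324 and 319 CPM in wild-type libraries (log2 fold change -3.13, SE 0.28, adjusted p = 0.000363), and TGFB1 rose by 0.98 (log2). In the Notch pathway, with 11 higher and 5 lower of 27, HES4 and NOTCH3 rose (log2 fold changes 4.20 and 2.78, and 4.99 for HES4 without wild-type replicate 1), and LFNG, which adds sugars to Notch, fell by 3.999 (log2). Of the YAP/TAZ and Hippo genes 10 rose and 8 fell of 30, and known YAP targets went both ways: CCN1 rose by 1.42 (log2), while ANKRD1 fell by 1.37 (log2). Among p53 pathway genes (11 higher and 8 lower of 34), GADD45B and BBC3 (PUMA), an activator of cell death, rose (log2 fold changes 2.57 and 2.18).

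Mucins and mucus-associated genes had 7 lower and 2 higher of 13 (median log2 fold change -1.26, -0.72 without wild-type replicate 1). SPDEF, a factor of secretory epithelia, had 0.414, 0.394 and 0.469 CPM in mutation 1 libraries, against 31.4, 64.5 and 62.7 CPM in wild-type libraries (log2 fold change -6.94, SE 0.41, adjusted p = 0.000118). MUC5B, a gel-forming mucin, had 0.276, 0.197 and 0 CPM in mutation 1 libraries, against 15.99, 24.5 and 24.6 CPM in wild-type libraries (log2 fold change -6.98, SE 0.54, adjusted p = 0.000233). MUC5AC, another gel-forming mucin, had 0, 0.0657 and 0 CPM in mutation 1 libraries, against 8.56, 994 and 985 CPM in wild-type libraries, 1 read in the mutation 1 group against 33779 in the wild-type group (ratio 29270, exact 95% interval 5253 to 1156136, counting error only). Its call was lost without mutation 1 replicate 2 (adjusted p = 0.0527). All but a small part of those wild-type reads came from replicates 2 and 3. MUC1, a membrane mucin, went the other way, with 40.7, 37.2 and 38.7 CPM in mutation 1 libraries, against 7.76, 1.21 and 1.33 CPM in wild-type libraries (log2 fold change 3.52, SE 0.73, adjusted p = 0.00797, log2 fold change 4.95 without wild-type replicate 1). The 21 markers of airway, lung and gut secretory epithelium summed to 6.80 to 7.75 CPM with mutation 1 and 79.9 to 1260 CPM with wild type; 3 of them reached 1 CPM with mutation 1 and 8 with wild type, and 6 were at 0 in all 6 libraries, the lung and airway genes NKX2-1, SFTPC and SCGB1A1 among them. MUC5AC made up most of that sum in wild-type replicates 2 and 3, and MUC5B, AGR2 and FOXA2 of the marker list are in the mucin class too. NAPSA, a lung protease in the marker list, went the other way, with 3.52 to 4.79 CPM with mutation 1 and 0.664 to 1.97 CPM with wild type. The part of these markers in the result was not tested. ATP10A, a lipid flippase, and SLCO1B3, an organic anion carrier of liver, had 0 reads with mutation 1. By a floor of 3 counts in each mutation 1 library they were at least 67.8-fold and 42.7-fold lower. XAGE2, a cancer-testis gene, had 0 reads with wild type and was at least 34.5-fold higher by the same floor in each wild-type library.

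The machinery of microRNAs was divided: of 24 tested genes 7 rose and 10 fell (median log2 fold change 0.04). DGCR8, the RNA-binding partner of DROSHA, had 4.35, 3.74 and 4.22 CPM in mutation 1 libraries, against 36.1, 59.96 and 59.9 CPM in wild-type libraries (log2 fold change -3.66, SE 0.24, adjusted p = 0.000154). TARBP2 (TRBP), a partner of Dicer, had 8.35, 9.78 and 8.28 CPM in mutation 1 libraries, against 27.7, 40.4 and 43.3 CPM in wild-type libraries (log2 fold change -2.08, SE 0.20, adjusted p = 0.000461). Both were lowest in mutation 1 libraries, with wild-type replicate 1 next. PRKRA (PACT), the other known double-stranded RNA partner of Dicer, rose by 0.38 (log2). DROSHA, XPO5 and DDX5, a helicase of the DROSHA complex, fell (log2 fold changes -0.34, -0.42 and -1.74). AGO2, the Argonaute that can cut its target, had 53.99, 50.4 and 50.9 CPM in mutation 1 libraries, against 19.2, 13.8 and 14.9 CPM in wild-type libraries (log2 fold change 1.70, SE 0.14, adjusted p = 0.000305). AGO1 and AGO4 did not pass the test (adjusted p = 0.205 and 0.0771). TNRC6C rose by 1.31 (log2). The calls of PRKRA and DROSHA were lost on leaving out single libraries: without mutation 1 replicate 1 or 2 or wild-type replicate 2 or 3 (adjusted p = 0.0523 to 0.0716) for PRKRA and without any mutation 1 library (adjusted p = 0.0518 to 0.0673) for DROSHA. Transcripts that host microRNAs had 10 lower and 7 higher of 25 (median log2 fold change -0.86). MIR503HG had 1.24, 1.05 and 1.02 CPM in mutation 1 libraries, against 4.58, 21.7 and 18.8 CPM in wild-type libraries (log2 fold change -3.76, SE 0.63, adjusted p = 0.00364), and MIR222HG, host of miR-221 and miR-222, had 28.4, 31.8 and 29.2 CPM in mutation 1 libraries, against 6.97, 15.99 and 14.8 CPM in wild-type libraries (log2 fold change 1.24, SE 0.31, adjusted p = 0.0151), a call that was lost without mutation 1 replicate 2 (adjusted p = 0.0508). Mature microRNAs were not measured in these libraries.

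By RNA type, 25 of 27 small nucleolar RNA genes were higher, 1 was lower and their median log2 fold change was 2.97. They guide chemical changes of ribosomal RNA, and most lie in introns. Only genes that passed the count filter were tested, and high counts in a single group are enough to pass. SNORD14E, near 0 with wild type, entered through the mutation 1 libraries. Such selection can raise the share and the median, so neither measures all small nucleolar RNA genes. SNORD14E had 58.6, 61.2 and 70.5 CPM in mutation 1 libraries, against 0.0664, 0.11 and 0 CPM in wild-type libraries, the widest gap between the nearest libraries over all genes; its 3 wild-type reads against 2683 with mutation 1 gave a ratio of 1032 (exact 95% interval 352.8 to 5008, counting error only). HSPA8, the chaperone gene in whose intron it lies, had 2836, 2875 and 2798 CPM in mutation 1 libraries, against 1787, 1599 and 1678 CPM in wild-type libraries (log2 fold change 0.75, SE 0.09, adjusted p = 0.000941). SNORA73B, hosted by SNHG3, had 9.04, 9.52 and 9.61 CPM in mutation 1 libraries, against 0.398, 0.602 and 1.02 CPM in wild-type libraries, and SNHG3 itself had 383, 402 and 384 CPM in mutation 1 libraries, against 71.7, 31.9 and 34.6 CPM in wild-type libraries (log2 fold change 3.08, SE 0.34, adjusted p = 0.000784). Host transcripts of small nucleolar RNAs had 15 higher and 2 lower of 27 (median log2 fold change 0.55). Of 74 genes annotated within introns on the sense strand 33 were higher and 15 lower, with a median of 1.07. Counting took no account of strand or of whole transcripts, so reads over a small RNA gene cannot be told apart from reads of an unspliced host. NEAT1, the nuclear long RNA that builds paraspeckles, had 1413, 1484 and 1458 CPM in mutation 1 libraries, against 174, 184 and 184 CPM in wild-type libraries, with tight groups (log2 fold change 3.01, SE 0.08, adjusted p = 5.02e-05), and MALAT1, a nuclear speckle RNA, rose by 1.72 (log2).

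Fold changes also went with the number of exons. Of 179 tested protein-coding genes whose longest annotated chain is 1 exon, 99 fell (55.3%) and 23 rose (12.8%), with a median of -1.06. The median was -0.47 over 342 genes of 2 exons, -0.26 over 1324 genes of 3 to 4, -0.12 over 4146 of 5 to 9, -0.03 over 4233 of 10 to 19 and 0.17 over 1998 of 20 or more. Among the last, 681 rose (34.1%) and 465 fell (23.3%). Without wild-type replicate 1 the medians ran from -0.84 for 1 exon to 0.14 for 20 or more. JUN and SOX4, named above among the genes that fell, have 1 exon. The class medians over genes of 5 to 19 exons alone are given with the alternatives below.

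**Figure D3:**
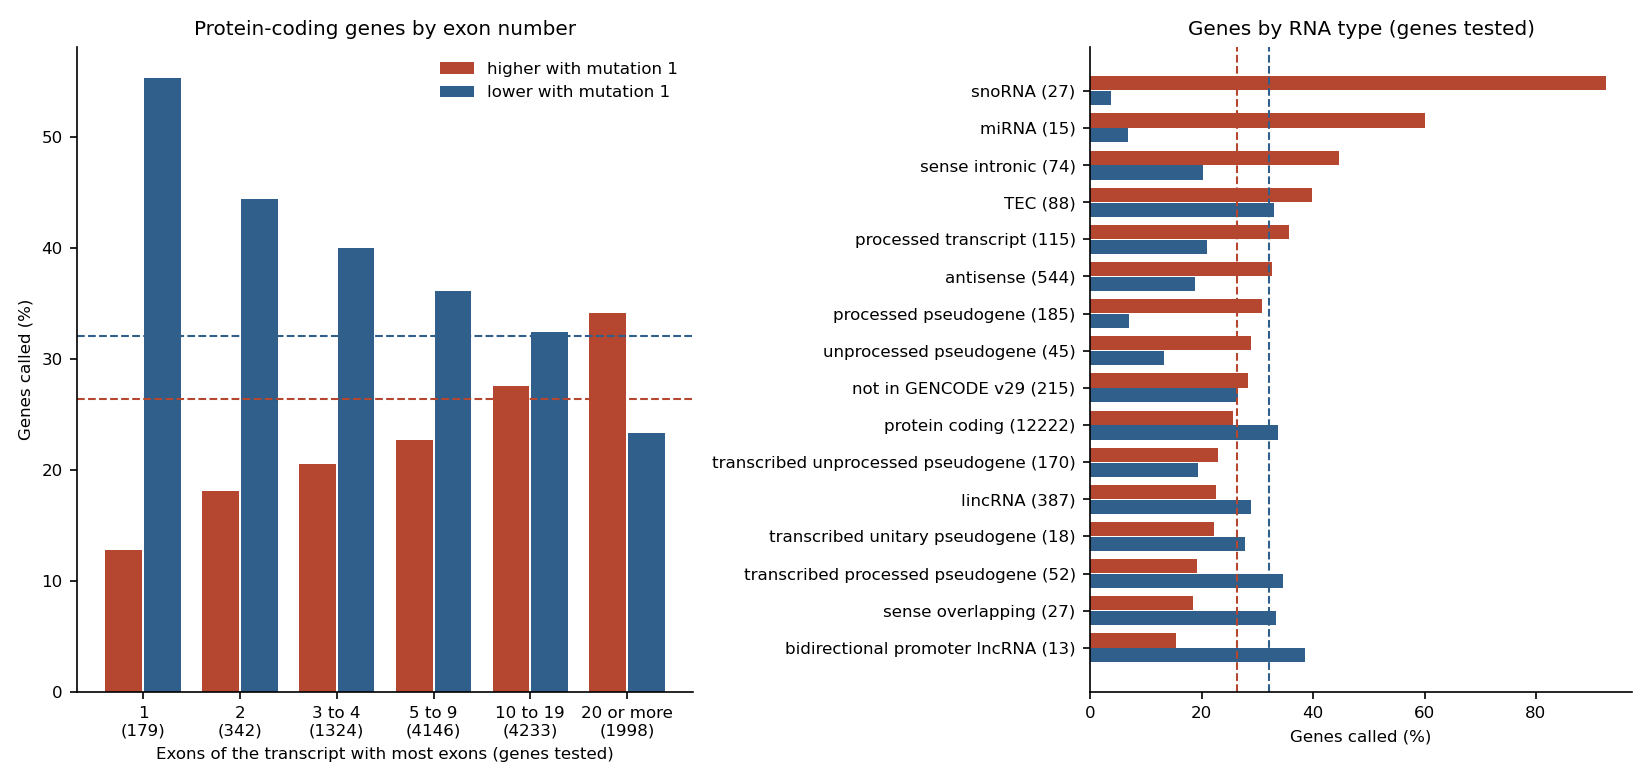
Share of tested genes called higher and lower with mutation 1 than with wild type, by the number of exons of protein-coding genes (left) and by RNA type (right, types with at least 10 tested genes); dashed lines are the shares over all genes, 26.4% higher and 32% lower. Genes of 1 exon were lower in 55.3% and small nucleolar RNAs higher in 92.6%.

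Median changes differed between chromosomes. Genes of chromosomes 12, 13 and 14 were lower with mutation 1 than with wild type, at medians of -0.39, -0.68 and -0.51. Those of chromosomes 18 and X were higher, at 0.33 and 0.36. Over mutation 2 the medians of chromosomes 12, 13 and 14 were -0.08, -0.13 and 0.05, and over mutation 3 0.01, -0.12 and 0.06. Chromosomes 18 and X stood at -0.08 and 0.21 over mutation 2 and at -0.01 and 0.20 over mutation 3. Chromosome X apart, these differences were thus small or absent between mutation 1 and the other mutants. On chromosome 13 the libraries stood at -0.27, -0.25 and -0.31 with mutation 1 and at -0.13, 0.51 and 0.47 with wild type, as medians of log2(CPM + 0.5) about each gene's mean. On chromosome 18 the values were 0.20, 0.20 and 0.18 with mutation 1, against 0.24, -0.44 and -0.39 with wild type. On both, wild-type replicate 1 lay with the mutation 1 libraries and away from the other wild-type libraries.

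**Figure D4:**
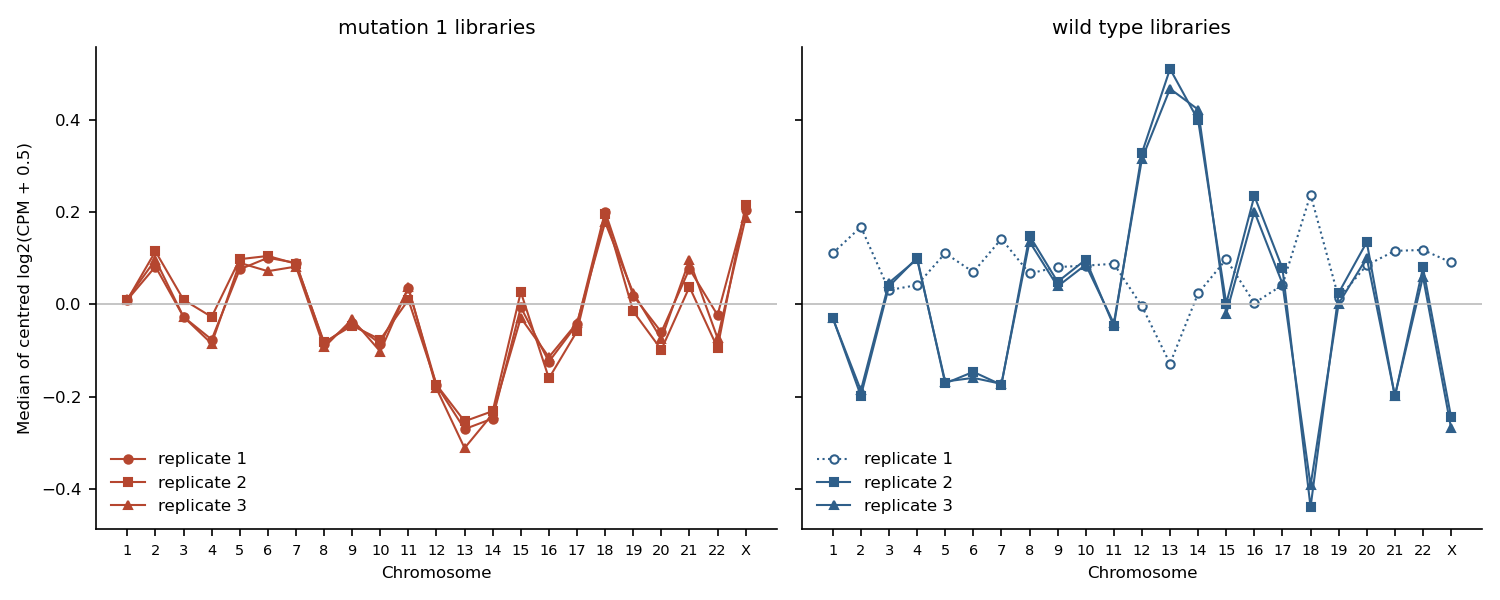
Median of log2(CPM + 0.5) about each gene's mean over the 6 libraries, by chromosome, for mutation 1 libraries (left panel) and wild-type libraries (right panel), one line a library. On chromosomes 12, 13, 14, 18 and X wild-type replicate 1 lay apart from the other wild-type libraries.

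Mutation 1 was also tested directly against the other mutants, which involves no wild-type library. Against mutation 2, 11916 of 14256 genes were called (83.6%), 5868 higher with mutation 1 (41.2%) and 6048 lower (42.4%). Against mutation 3, 10073 of 14207 were called (70.9%), 4979 higher (35%) and 5094 lower (35.9%). These comparisons share the mutation 1 libraries with the one above, so only each one's own values are set side by side. Replication licensing had a median log2 fold change of -0.99 over wild type, -1.18 over mutation 2 and -0.26 over mutation 3. For the proteasome the medians were -0.77, -0.65 and -0.17, and for ribosome assembly -0.59, -0.70 and -0.35, in the same order. Collagens stood at 0.83, 0.80 and 0.56, and hypoxia-responsive genes at 0.87, 0.51 and 0.06. Mitochondrial messenger RNAs had medians of -2.04 over wild type, -2.29 over mutation 2 and -2.37 over mutation 3, so the level was lower with mutation 1 than in each of the 3 other groups. Small nucleolar RNA genes that passed the filter against wild type had medians of 2.97, 2.40 and 2.33. All 3 values carry the selection by that filter. CDC6 had log2 fold changes of -2.44 over wild type, -2.35 over mutation 2 and -0.49 over mutation 3. FN1 stood at 1.61, 4.09 and 2.66, and PRMT6 at -5.39, -5.20 and -1.92. Between mutants the direction could turn: SOX4 was lower with mutation 1 than with wild type (-3.95) but higher than with mutation 2 (3.15) or mutation 3 (6.33), and KRT81 likewise (-5.06, 6.72 and 1.86). DICER1 stood at -0.06 over mutation 2, which did not pass the test (adjusted p = 0.347), and at 0.14 over mutation 3, which did (adjusted p = 0.0253).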

How the data were processed

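The files hold raw counts of read pairs per gene. Per the file headers, the authors made these counts with featureCounts 2.0.6, summing exons by gene ID without regard to strand, for read pairs with a mapping quality of at least 10, on an Ensembl gene track of hg38. The submitters' processing notes list STAR, SAMtools, cutadapt 1.9.1, FastQC 0.11.8 and DESeq2, with no order or settings. Each of the 12 libraries was deposited by itself. Of 64252 gene IDs, 41481 matched a symbol, and these carried 99.48% of the counts. RNA types and exon numbers came from GENCODE release 29 and promoters from RefSeq on GRCh38.p14.

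The 3 mutation 1 and 3 wild-type libraries were fitted alone in edgeR 4.0.16 (R 4.3.3): genes passing filterByExpr, TMM scaling, a robust quasi-likelihood F test, and Benjamini-Hochberg adjustment over all genes tested, with a call at an adjusted p under 0.05. The script was tested on simulated data. The standard error is the log2 fold change over the square root of F. Mutants were compared in fits of the same kind. CPM are per scaled library size. Totals of 13761260 to 17078273 counts limit precision for genes near 0. For these, exact 95% intervals and a floor of 3 counts in each library cover counting error only.

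The classes, the members and the lists of markers were chosen with earlier results of these data known. Genes were named by a rule: in each class up to 3 higher and 3 lower called genes whose groups did not overlap and whose higher group averaged at least 5 CPM, ranked by the gap on the log2 scale between the nearest libraries, and over all genes the 10 with the widest gap in each direction. Well-known members of a class were named besides, whether or not they passed. Alternatives were other scalings, filters, thresholds and tools (DESeq2 1.42.0, limma 3.58.1), all 12 libraries in 1 fit, and each library left out in turn. A cell line was studied, and no variant was read. Some results are not reported here.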

Additional observations from a re-analysis of the deposited data

How the results depend on the processing

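The number of genes called between mutation 1 and wild type was 8305. Leaving out each library in turn gave 6200 to 12853 calls, with 12853 (6338 higher, 6515 lower) without wild-type replicate 1. A test against a 1.5-fold change called 4560 (1915 higher, 2645 lower), and 4581 genes were both called and at least 2-fold apart. Under the other scalings, filters and tools and with all 12 libraries in 1 fit the count stayed within 1.5 times. Of the calls, 45.2% were higher ones, against 42% to 49.6% under these alternatives. Against mutation 3, 12 libraries in 1 fit called 6454 genes (3053 higher, 3401 lower) in place of 10073; leaving out libraries gave 9707 to 9888 there and 11744 to 12020 against mutation 2.

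DICER1 turned to a log2 fold change of -0.078 under limma-voom (adjusted p = 0.218) and to -0.065 without wild-type replicate 1 (adjusted p = 0.307), and its values with single libraries left out spanned -0.065 to 0.25. Under limma-voom LDHA turned to 0.61 and MT-RNR2 to -0.072. Leaving out single libraries gave -0.37 to 0.65 for LDHA and -0.065 to 0.54 for MT-RNR2, which turned without wild-type replicate 1, and -0.29 to 0.072 for VIM, which turned without wild-type replicate 2 (0.072) or 3 (0.061). These genes were not called over all 6 libraries. The cause was not tested. For the 188 named genes with DICER1 left out, there were 2615 values under alternatives. Of these, 2532 kept direction and call, 45 lost the call, 32 gained it and 6 turned direction. Of the 188 named genes 172 were called over all 6 libraries, many of them picked for wide gaps between the groups. Most were therefore bound to keep their calls, and the tally does not describe genes at large.

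Classes with a median past 0.3 in either direction numbered 56, and 47 to 59 under the alternatives. Single class medians were less stable than this count. For 53 classes there were 844 medians under alternatives. A median was taken as moved if it shifted by at least the standard deviation of the class's mean level among wild-type libraries. By that rule 594 stayed and 250 moved. The sign changed in 47, and in 5 of these the median over all 6 libraries and all members was past 0.3. Over protein-coding members with 5 to 19 exons, an alternative chosen after seeing the data like the next, replication licensing stood at -1.10, the proteasome at -0.77 and collagens at 1.16, while mucins turned to 0.22 over 6 genes and the microRNA machinery to -0.34 over 12, histone methyltransferases and demethylases stood at -0.88, matrix glycoproteins at 1.33 in place of 0.53 and RNA helicases at -0.28 in place of -0.51. With chromosomes 12, 13, 14, 18 and X left out, the medians were -0.66 for homologous recombination, -0.18 in place of -0.41 for interferon-stimulated genes, -0.27 in place of -0.54 for RNA methylation and editing, and 0.20 for histone methyltransferases and demethylases.

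No paired analysis was possible because the mutation 1 replicate numbers follow the order of the accessions and only those of wild type come from the labels. Genes near 0 in a group are limited by depth.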

Other observations

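Genes of the circadian clock stood among the widest gaps between the groups over all genes. The list of 22 clock genes below was drawn up after PER1 and NR1D1 had been seen there, so it supports nothing by itself. Of 20 tested, 15 were higher with mutation 1, 4 were lower and 1 did not pass edgeR's quasi-likelihood test. PER1, a repressor arm of the clock, had 382, 380.0 and 391 CPM in mutation 1 libraries, against 15.5, 12.7 and 11.9 CPM in wild-type libraries (log2 fold change 4.85, SE 0.13, adjusted p = 4.94e-05). NR1D1 (REV-ERB alpha), which represses BMAL1, had 501, 489.5 and 503 CPM in mutation 1 libraries, against 17.98, 15.6 and 17.2 CPM in wild-type libraries (log2 fold change 4.88, SE 0.10, adjusted p = 4.64e-05). DBP, a clock output factor, had 117, 115 and 115 CPM in mutation 1 libraries, against 15.9, 4.49 and 4.39 CPM in wild-type libraries (log2 fold change 3.81, SE 0.55, adjusted p = 0.00202, log2 fold change 4.72 without wild-type replicate 1). Every mutation 1 library was above every wild-type library in these genes. CRY2, PER3 and NFIL3 rose (log2 fold changes 1.98, 1.74 and 1.86). The activators CLOCK and BMAL1 and the repressor CRY1 fell (log2 fold changes -0.60, -0.50 and -0.99); the call of BMAL1 was lost without any mutation 1 library or wild-type replicate 2 or 3 (adjusted p = 0.0984 to 0.14). Over mutation 3 the log2 fold changes of PER1, NR1D1 and DBP were 1.50, 2.57 and 1.24, and over mutation 2 5.04, 4.48 and 4.28. The labels give no time of harvest.

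Other genes with wide gaps between the nearest libraries included AMN (amnionless, a part of the cobalamin receptor), with 40.7, 36.6 and 42.2 CPM in mutation 1 libraries, against 1.86, 1.81 and 1.72 CPM in wild-type libraries (log2 fold change 4.47, SE 0.12, adjusted p = 4.94e-05). NFATC4, a calcium-responsive factor, had 20.2, 20.9 and 23.6 CPM in mutation 1 libraries, against 0.266, 0.219 and 0.318 CPM in wild-type libraries (log2 fold change 6.30, SE 0.19, adjusted p = 6.19e-05). GALNT14, which starts mucin-type sugar chains, had 11.2, 9.06 and 11.4 CPM in mutation 1 libraries, against 0.266, 0 and 0 CPM in wild-type libraries. On the low side, KYNU, an enzyme that degrades kynurenine, had 0.414, 0 and 0.234 CPM in mutation 1 libraries, against 23.4, 55.5 and 57.4 CPM in wild-type libraries (log2 fold change -7.69, SE 0.73, adjusted p = 0.000452, log2 fold change -8.58 without mutation 1 replicate 1, log2 fold change -7.05 without mutation 1 replicate 2). RIOX1, a histone demethylase of the nucleolus, had 0.414, 0.46 and 0.313 CPM in mutation 1 libraries, against 20.2, 29.1 and 27.8 CPM in wild-type libraries (log2 fold change -5.98, SE 0.25, adjusted p = 7.62e-05). TMEM156, a membrane protein, had 0.138, 0.0657 and 0.156 CPM in mutation 1 libraries, against 10.2, 25.8 and 29.5 CPM in wild-type libraries (log2 fold change -7.44, SE 0.64, adjusted p = 0.000325).

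Sums over the other lists of cell type markers did not overlap between the groups and were not tested. Luminal breast markers summed to 1983 to 2056 CPM with mutation 1 and 998 to 1971 CPM with wild type, and basal and myoepithelial markers to 286 to 292.5 CPM with mutation 1 and 77.7 to 92.8 CPM with wild type. Liver and endoderm markers summed to 63.9 to 70.2 CPM with mutation 1 and 22.9 to 51.9 CPM with wild type, blood markers to 22.1 to 26.7 CPM with mutation 1 and 4.26 to 21.0 CPM with wild type, and neural markers to 493 to 516 CPM with mutation 1 and 186 to 262 CPM with wild type. Endothelial markers summed to 3.02 to 3.66 CPM with mutation 1 and 5.58 to 23.5 CPM with wild type, and melanocyte markers to 11.1 to 12.8 CPM with mutation 1 and 14.1 to 21.0 CPM with wild type. With mutation 1, most of the sum was ENO2 for neural, MYLK for basal, SERPINA1 for liver and CD14 for blood markers. KRT8 and AREG made up most of the luminal sum there. GFAP of the neural list and SPDEF, AGR2 and TFF3 of the luminal list were lower in every mutation 1 library than in any wild-type library. The sums therefore do not describe the lists as a whole.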
